A study of Mus musculus with 2 samples.

Results

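Axon guidance ligands and receptors were followed in 2 lines of mouse neural progenitor cells, with 1 array per line. Members were taken by their name on the array. They were the semaphorins of classes 3 to 7, the plexins, neuropilins, ephrins, Eph receptors, Slits, Robos, netrins, netrin-Gs and Unc5 receptors, together with Dcc, Neo1 and Dscam. The rule found 70 genes, read by 133 of the 41174 non-control probes. Signals well above background on at least 1 array were found for 58 of these genes, and for 54 on both arrays, out of 19243 genes in all. The other 12 were too dim on both arrays, meaning not well above background by the scanner software: Dcc, Dscam, Epha6, Epha8, Epha10, Ephb1, Ephb2, Ntng2, Plxnc1, Robo3, Robo4 and Unc5d.

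Both lines derived from N31, a neural progenitor line of strain 129/Ola that came from induced pluripotent stem cells and carries the reprogramming factors c-Myc, Klf4, Oct3/4 and Sox2 under doxycycline control. A CAG construct brought in with the Tol2 transposon overexpressed EGFP, a fluorescent protein, in one line, and in the other Pax6, a transcription factor with a paired domain that patterns the forebrain and eye. Total RNA was taken 24 h after doxycycline in both, when only the EGFP line had visibly changed its shape, and the study asked about Pax6 and the passage from mesenchymal to epithelial cells early in reprogramming. The sources used here do not say whether each line was a clone or a pool of cells, and both groups received doxycycline and carry the 4 factors.

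Axon guidance genes encode secreted or membrane-bound cues and the receptors that turn them into attraction or repulsion of a growth cone. Semaphorins bind plexins, with neuropilins as co-receptors for most class 3 members. Ephrin-A ligands, held by a lipid anchor, bind mainly EphA receptor tyrosine kinases, while the transmembrane ephrin-Bs bind mainly EphBs. Slits bind Robo receptors, and netrins bind Dcc, neogenin (Neo1) and Unc5 receptors. The same molecules also set cell boundaries, adhesion and migration in neural progenitors, blood vessels and epithelia.

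Per spot, the measured value was a Cy3 intensity after the scanner software's background subtraction. Signals well above background made up 64.7% (EGFP) and 67.2% (Pax6) of the 43379 non-control spots, and 0 were saturated. Differences are given as log2 of Pax6 over EGFP after each array was divided by its 75th percentile (a signal of 854 and 991, respectively), so a gene with equal raw signals has a difference below 0. The value after ± is the software's measurement error, with a median of 0.20 for a member's log2 difference. Its multiplicative part was a software setting of 10% on each array, so most bright probes carry about 0.20. Replicate spots of 172 probes gave a median SD of 0.08 and a 95th percentile of 0.44. The array's Pax6 probe read 557 and 822 (0.35 ± 0.20), and whether it lies within the transgene was not tested. With 1 array per group there was no replicate check and no test. The number of arrays limits the precision, and the errors leave out the spread between cultures. Among all genes 452 differed by at least 2-fold with the higher signal in Pax6 cells, and 467 with the lower. The higher ones made up 49.2% of these, but 59.3% after scaling by the median and 61.8% after normexp background correction with quantile normalization.

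The members differed in both directions, with the 2-fold lower ones all in the EphA family and the higher ones each in a different family. Higher in Pax6 cells by at least 2-fold were 4 of the 58 genes, Slit3, Ntn1, Neo1 and Sema6d, beside 2.35% of all genes. At least 2-fold lower were 4 genes as well, Epha1, Epha3, Epha4 and Epha5, beside 2.43% of all genes. In both directions together this was 13.8% of the members and 4.78% of all genes. The remaining 50 members were within 2-fold or had a bound under it, a bound that for Ntn4, Plxnb3 and Unc5a sets no upper limit. At 1.5-fold, 5 members were higher and 12 lower, where the shares over all genes were 5.91% and 7.76% (13.7% in both directions). The median difference of the members was -0.07, against -0.01 over all genes, while their median absolute difference was 0.39 against 0.18. Differences beyond 2 times the measurement error were found for 13 members on the higher side and 13 on the lower side, beside 7.31% and 9.84% of all genes.

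**Figure D1:**
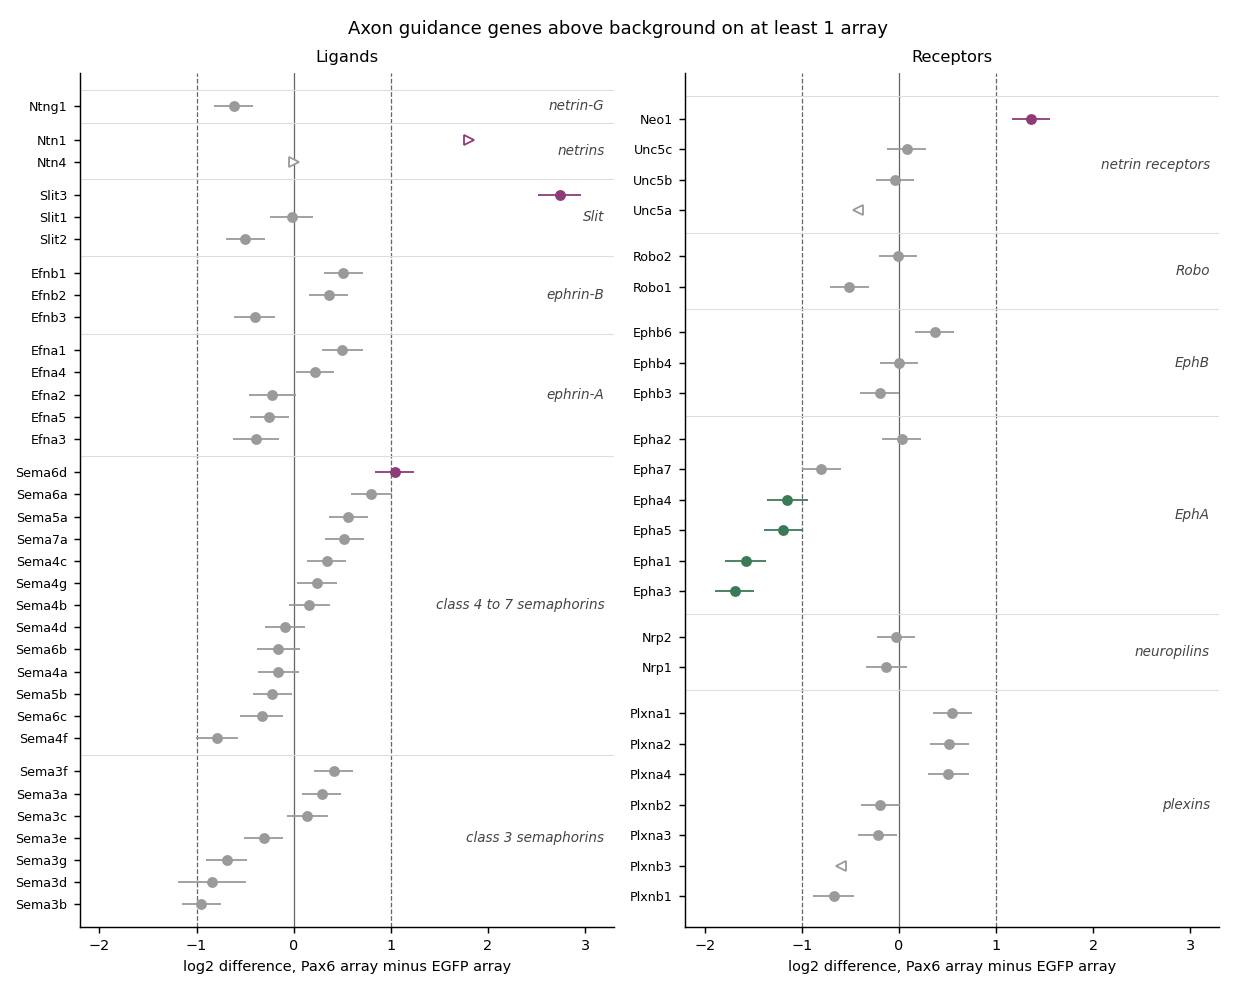
Log2 difference (Pax6 array minus EGFP array) of the 58 axon guidance genes above background on at least 1 array, ligands on the left and receptors on the right, grouped by family. Points are the brightest probe of a gene, bars the software's measurement error, open triangles bounds for genes dim on 1 array and dashed lines 2-fold. Slit3 lies farthest to the right at 2.74, and Epha1, Epha3, Epha4 and Epha5 lie left of the lower dashed line.

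Ligands and receptors were counted apart, and the difference between them was not tested. Of 34 ligand genes above background, 3 were at least 2-fold higher and 0 lower, with a median of -0.01 and a range from -0.95 to 2.74. Of 24 such receptor genes, 1 was at least 2-fold higher and 4 were lower, with a median of -0.16 and a range from -1.69 to 1.36. All 4 lower receptors were EphA receptors. At 1.5-fold, 4 ligands were higher (11.8%) and 5 lower (14.7%), and 1 receptor was higher (4.17%) and 7 were lower (29.2%). The shares of all genes higher and lower were 5.91% and 7.76% at 1.5-fold, and 2.35% and 2.43% at 2-fold. In bulk RNA, fewer cells of a type and less RNA per cell cannot be told apart.

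**Figure D2:**
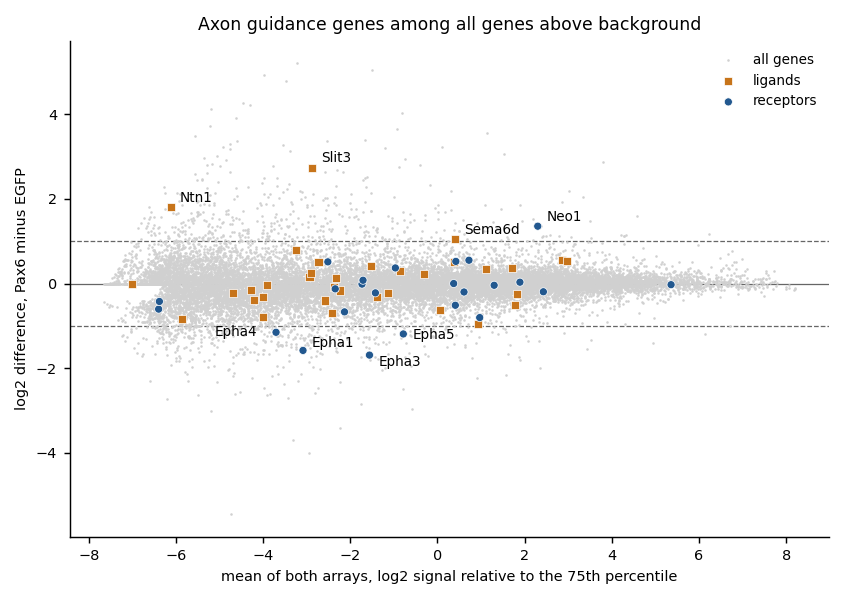
Log2 difference (Pax6 minus EGFP, vertical axis) against the mean of both arrays (log2 signal relative to each array's 75th percentile, horizontal axis) for the 19243 genes above background on at least 1 array, in grey, with the guidance ligands as squares and the receptors as circles. Named genes lie beyond the dashed 2-fold lines. Ntn1 is a bound and sits among the dimmest genes, while Neo1 and Sema6d lie above the 75th percentile.

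The sequences before the starts of the members that differed most are shown to place the results on their promoters. RefSeq windows (build GRCm38.p6) matched 60 of the 70 members by symbol, and 7 of the 8 at least 2-fold different. Each line gives the 250 bases before the start, 5′ to 3′ on the gene's strand. Capitals mark matches on either strand to CACCTG, an E-box bound by zinc-finger repressors such as the Zeb and Snail factors, to GGGCGG, a GC box bound by Sp and Klf factors, and to TTCACGC, a core of the site of the Pax6 paired domain. The first 4 lines are EphA receptors lower on the Pax6 array, at chr16:63864176-63864425 (Epha3), chr6:42373269-42373518 (Epha1), chr5:84417383-84417632 (Epha5) and chr1:77515089-77515338 (Epha4), all on the minus strand. Slit3 (chr11:35121206-35121455, plus strand) and Neo1 (chr9:59036442-59036691, minus strand) were higher there.
Epha3: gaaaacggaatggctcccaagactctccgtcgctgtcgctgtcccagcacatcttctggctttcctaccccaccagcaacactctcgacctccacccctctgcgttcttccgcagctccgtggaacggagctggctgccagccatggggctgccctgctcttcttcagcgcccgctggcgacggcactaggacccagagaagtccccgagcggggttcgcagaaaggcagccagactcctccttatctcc
Epha1: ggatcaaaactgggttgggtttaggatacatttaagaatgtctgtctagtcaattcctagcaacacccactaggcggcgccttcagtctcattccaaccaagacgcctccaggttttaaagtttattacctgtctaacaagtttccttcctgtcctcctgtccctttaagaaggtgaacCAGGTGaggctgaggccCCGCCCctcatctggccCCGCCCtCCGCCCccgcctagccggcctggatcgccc
Epha5: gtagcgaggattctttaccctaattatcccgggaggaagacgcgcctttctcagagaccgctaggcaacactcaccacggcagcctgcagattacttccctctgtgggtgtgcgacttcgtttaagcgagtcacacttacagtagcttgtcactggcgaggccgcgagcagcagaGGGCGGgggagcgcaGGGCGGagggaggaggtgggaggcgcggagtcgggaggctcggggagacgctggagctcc
Epha4: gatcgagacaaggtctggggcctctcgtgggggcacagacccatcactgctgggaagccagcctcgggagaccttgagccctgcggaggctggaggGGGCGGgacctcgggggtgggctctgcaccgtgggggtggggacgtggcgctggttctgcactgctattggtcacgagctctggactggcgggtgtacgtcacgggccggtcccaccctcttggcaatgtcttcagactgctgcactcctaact
Slit3: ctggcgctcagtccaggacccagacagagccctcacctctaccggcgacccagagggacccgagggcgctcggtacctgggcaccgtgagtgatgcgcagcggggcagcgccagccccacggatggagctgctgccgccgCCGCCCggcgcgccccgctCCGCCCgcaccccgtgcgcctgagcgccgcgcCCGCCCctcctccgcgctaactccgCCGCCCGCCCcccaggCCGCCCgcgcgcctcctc
Neo1: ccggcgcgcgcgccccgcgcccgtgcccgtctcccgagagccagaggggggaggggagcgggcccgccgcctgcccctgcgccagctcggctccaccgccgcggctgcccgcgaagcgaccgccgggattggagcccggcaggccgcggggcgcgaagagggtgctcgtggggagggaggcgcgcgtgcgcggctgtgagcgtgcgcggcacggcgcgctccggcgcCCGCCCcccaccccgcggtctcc

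The windows differed in base content and in matches. GC boxes numbered 6 in Slit3, 3 in Epha1, 2 in Epha5, 1 in Epha4, 1 in Neo1 and 0 in Epha3, where overlapping matches count separately. The E-box letters were found in Epha1 alone among these 6, and a further match lay in the second of 2 Sema6d windows. TTCACGC was in none of the 76 windows of members and in 1.03% of all 32851 windows. The E-box letters were in 13.2% of the members' windows and 17.2% of all windows. GC boxes were in 69.7% of the members' windows and 32.7% of all, beside a median GC content of 64.4% against 52.4%. A match is a run of letters and not a binding site, and these arrays do not measure binding.

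Slit3 showed the largest difference among the 54 members measured on both arrays. Slits are secreted proteins that repel axons by way of Robo receptors and also act on migrating cells outside the nervous system. The brighter Slit3 probe (chromosome 11, 35565582 to 35565641, plus strand; all probe positions are in build mm7, as the array files give them) gave signals of 45.0 (EGFP) and 348 (Pax6); below, a pair of signals follows this order. This is a log2 difference of 2.74 ± 0.22, or 6.67-fold higher. The other probe, within 35561771 to 35561830 on the same strand, read 30.7 and 355, a difference of 3.32 ± 0.23 or 9.97-fold. Both probes thus placed the Pax6 array higher. Slit3 stayed at least 2-fold higher in all 11 alternative settings of scaling, background correction, source table, probe rule and filter that were run, at 1.94 to 3.03. The deposited series table held the same intensities, and the filters keep the value of a gene measured on both arrays. Those settings therefore could not change the values of Slit3, Neo1 or Epha3.

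The other Slits did not share this difference. Slit1 read 57.4 and 65.5, a log2 difference of -0.02 ± 0.22. For Slit2 the brightest probe read 3481 and 2861 (-0.50 ± 0.20), and the 4 probes measured on both arrays lay between -0.50 and -0.11. Of the Slit receptors, Robo1 read 1355 and 1102 (-0.51 ± 0.20) and Robo2 read 258 and 297 (-0.01 ± 0.20). The 5 Robo2 probes above background ranged from -0.27 to 0.13. A second Robo1 probe, dim in the EGFP cells with signals of 4.35 and 13.4, gave a bound of at least 1.12-fold higher, so the probes of Robo1 disagree in sign. Robo3, a receptor of commissural axons, and Robo4, a receptor of endothelial cells, were too dim on both arrays.

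Netrin-1 and its receptor neogenin were both higher on the Pax6 array. Ntn1, a laminin-related secreted cue that attracts or repels axons depending on the receptor, exceeded background clearly in the Pax6 cells alone, with signals of 4.16 and 42.0 (chromosome 11, 68291883 to 68291942, minus strand). Set against the dimmest signal that the EGFP array still held well above background, this is at least 3.49-fold higher, a log2 bound of 1.80. Its difference as measured was 3.12 ± 0.86. With normexp background correction, which adds an offset, Ntn1 differed by 0.44 (75th percentile) and 0.59 (quantile normalization). A second Ntn1 probe, with signals of 2.16 and 3.19, was too dim on both arrays, so the difference rests on a single dim probe.

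Neo1, a receptor of netrins and of repulsive guidance molecules, had a bright and repeated difference. Its brightest probe (chromosome 9, 58905342 to 58905400, minus strand) read 2631 and 7809, 2.56-fold higher at 1.36 ± 0.20. Further probes read 374 and 1321 (1.61 ± 0.20) and 132 and 405 (1.41 ± 0.21). The remaining probe, at 4.10 and 11.6, was dim in the EGFP cells, and its bound gives no fold. The 3 probes measured on both arrays all exceeded 2-fold, and Neo1 did so in all 11 alternative settings, between 1.09 and 1.44.

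The remaining netrin receptors and netrins differed little or were dim. Unc5b, a repulsive netrin receptor, read 2133 and 2406 (-0.04 ± 0.20), and Unc5c read 254 and 311 (0.08 ± 0.20). Unc5a was well above background on the EGFP array only, with signals of 11.9 and 10.3. Its bound of 1.34-fold lower equals the difference as measured, -0.42 ± 0.45, which does not exceed its error. Dcc, the classical attractive netrin receptor, and Dscam, a cell adhesion molecule that also binds netrin, were too dim on both arrays. Neogenin was therefore the only netrin receptor among Dcc, Neo1, Dscam and Unc5a to Unc5d shown to differ by 2-fold on these arrays, where the bound of Unc5a sets no upper limit. Ntn4 read 4.58 and 11.2 and was dim in the EGFP cells, with a bound that gives no fold. Probes of Ntn3 and Ntn5 carry older names on the array and fall outside the rule. Ntn3 read 188 and 181 (-0.27 ± 0.21), and Ntn5 was not well above background.

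Ntng1, a lipid-anchored netrin-G that binds a synaptic adhesion partner rather than Dcc, was moderately lower on the Pax6 array. Its brightest probe, spotted 10 times (chromosome 3, 109961718 to 109961777, minus strand), read 1106 and 838, a log2 difference of -0.62 ± 0.20 or 1.53-fold. The SD of the difference over these 10 spots was 0.09. All 4 Ntng1 probes were below 0, from -0.82 to -0.52. Lrrc4c, the gene of the netrin-G1 ligand, was too dim on both arrays.

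**Figure D3:**
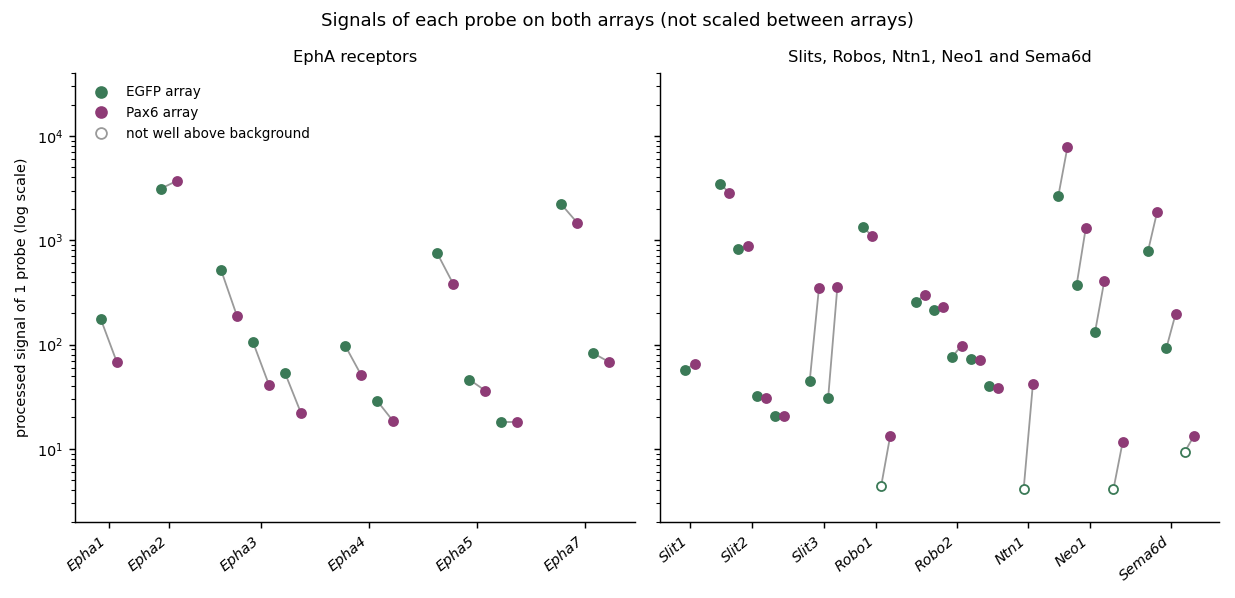
Processed signal (log scale, not scaled between arrays) of each probe above background on at least 1 array, with the EGFP array in green joined to the Pax6 array in purple, for the EphA receptors (left) and for Slits, Robos, Ntn1, Neo1 and Sema6d (right). Open circles are spots not well above background. The lines of Epha1, Epha3 and Epha4 slope down, those of Slit3 and Neo1 slope up, and those of Robo2 and most Slit2 probes are nearly flat.

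Semaphorins, the largest family here with 20 genes all above background on both arrays, split evenly around 0. A difference of at least 2-fold was found for 1 of them, on the higher side, and the median was 0.03. Sema6d, a transmembrane semaphorin that binds plexin-A1, read 785 and 1879 on its brightest probe (chromosome 2, 124408258 to 124408317, plus strand), a log2 difference of 1.04 ± 0.20 or 2.06-fold. The next probe read 92.5 and 196 (0.87 ± 0.21, or 1.83-fold), and the third was dim on the EGFP array (9.37 and 13.3, at least 1.11-fold higher). Sema6d was therefore at the edge of the 2-fold rule. Its value was 0.69 for the mean and 0.87 for the median of its probes.

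Of the 13 transmembrane and lipid-anchored semaphorins of classes 4 to 7, Sema6d included, 7 lay above 0 and 6 below, with a median of 0.16. Sema6a, a ligand of plexins A2 and A4, read 67.7 and 137 (0.80 ± 0.21, 1.74-fold), with its other measured probe at 0.36. Sema5a, which has thrombospondin repeats, read 5054 and 8670 (0.56 ± 0.20). Sema7a, anchored by a lipid and acting by way of integrins and plexin-C1, read 5596 and 9328 (0.52 ± 0.20). Each of these signals was well above background on both arrays and higher on the Pax6 array. Sema4c was at 0.34, Sema4g at 0.24 and Sema4b at 0.16. On the lower side Sema4f read 70.4 and 47.2 (-0.79 ± 0.22, 1.73-fold), and Sema6c, Sema5b, Sema6b, Sema4a and Sema4d lay between -0.33 and -0.09.

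Class 3 semaphorins, the secreted members, had a median of -0.31 and no gene beyond 2-fold among 7. The lowest was Sema3b, at 2254 and 1353, with a log2 difference of -0.95 ± 0.20 or 1.93-fold lower. Sema3d read 19.7 and 12.8 (-0.84 ± 0.35, 1.79-fold) and Sema3g read 204 and 146 (-0.69 ± 0.21, 1.62-fold). These 3 genes were lower on the Pax6 array by more than 1.5-fold, each on a single probe. Sema3e was at -0.31, and Sema3c, Sema3a and Sema3f were at 0.14, 0.29 and 0.41, with -0.34 on the second probe of Sema3c. Sema3a, the collapsing factor of sensory growth cones, read 428 and 606, and Sema3f, a neuropilin-2 ligand, 259 and 399.

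Of the semaphorin receptors, plexins A1, A2 and A4 were higher by under 2-fold and plexin B1 lower. Plxna2 read 954 and 1591 on its brightest probe (0.52 ± 0.20), and its 3 probes agreed, at 0.46 to 0.69. Plxna1 read 1164 and 1978 (0.55 ± 0.20), but a second probe differed by 0.03. Plxna4 read 125 and 207 (0.51 ± 0.21), with 0.29 on its other probe above background. Plexin-A probes thus lay at or above 0, apart from Plxna3, whose brighter probe was at -0.22 and whose dimmer one was at 0.18. Plxnb1, the receptor of Sema4d, read 245 and 179 (-0.67 ± 0.21, 1.59-fold lower), with -0.78 on its second probe. Plxnb3 was well above background on the EGFP array only (12.5 and 9.53). Its bound of 1.52-fold lower equals the difference as measured, -0.60 ± 0.48. Plxnb2, at 4920 and 4990, differed by -0.19 ± 0.20, and by -0.55 on its second, dimmer probe.

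The neuropilins, co-receptors of class 3 semaphorins and of VEGF, were close on both arrays. Nrp1 read 175 and 187 (-0.13 ± 0.21), with its 3 probes between -0.21 and -0.10. Nrp2 read 35394 and 40306, a log2 difference of -0.03 ± 0.20. A second Nrp2 probe, with signals of 2.29 and 2.09, was too dim on both arrays, so the value rests on 1 probe.

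EphA receptors were the family with the lowest values. Of 9 genes in the family 6 were above background, 5 of these were below 0 and 4 were at least 2-fold lower, with a median of -1.17. Epha3, a receptor best known for topographic mapping of axons and for migrating mesenchymal and cardiac cells, read 520 and 187 (chromosome 16, 63493624 to 63493683, minus strand). This is a log2 difference of -1.69 ± 0.20, or 3.23-fold lower. Its further probes read 105 and 40.8 (-1.58 ± 0.24) and 53.1 and 21.9 (-1.49 ± 0.25), so all 3 were at least 2-fold lower. Epha3 was at least 2-fold lower in all 11 alternative settings, at -1.69 to -1.33.

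Epha1, which is expressed mostly in epithelial tissues, read 174 and 67.5 (chromosome 6, 42301566 to 42301625, minus strand), 2.99-fold lower at -1.58 ± 0.21 on its only probe. With normexp background correction it was at -1.02 (75th percentile) and -0.93 (quantile normalization). Epha4, a receptor of both ephrin classes that guides corticospinal axons, read 97.7 and 51.0 (chromosome 1, 77593690 to 77593749, minus strand), 2.22-fold lower at -1.15 ± 0.21. Its second probe read 28.8 and 18.4 (-0.87 ± 0.30). Both Epha4 probes were lower on the Pax6 array, but with normexp background correction the gene was at -0.67 and -0.56.

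The probes of Epha5, a receptor of forebrain neurons, differed in size. The brightest (chromosome 5, 84003027 to 84003086, minus strand) read 750 and 381, 2.28-fold lower at -1.19 ± 0.20. The others read 46.2 and 36.1 (-0.57 ± 0.23) and 18.0 and 18.0 (-0.22 ± 0.32). All 3 were below 0, and the mean and the median of the probes put Epha5 within 2-fold. Epha7 read 2209 and 1468 (-0.80 ± 0.20, 1.75-fold lower), with -0.50 on its second probe. Epha2, a receptor abundant in epithelial and progenitor cells, was the exception, with signals of 3134 and 3718 and a log2 difference of 0.03 ± 0.20. With normexp background correction and quantile normalization, 2 of the 6 EphA genes were at least 2-fold lower and the median was -0.86, and 5 of 6 were still below 0.

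EphB receptors did not differ by 2-fold. Ephb4, a receptor of veins and progenitor cells, read 1105 and 1282 (0.00 ± 0.20), and Ephb3 read 1396 and 1410 (-0.20 ± 0.20). Ephb6, which lacks kinase activity, read 385 and 576 (0.37 ± 0.20). Ephb1 and Ephb2 were too dim on both arrays. Whether EphA and EphB receptors differ from each other was not tested.

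None of the 8 ephrins, the ligands of these receptors, differed by 2-fold or by 1.5-fold. Efnb1 read 936 and 1548 (0.51 ± 0.20), Efnb2 read 2460 and 3674 (0.36 ± 0.20) and Efnb3 read 163 and 144 (-0.40 ± 0.21). Efna1 read 108 and 178 (0.50 ± 0.21). Efna4 was at 0.22, and Efna2, Efna5 and Efna3 were at -0.22, -0.25 and -0.39. Efna5, a ligand of Epha3 and Epha4, read 3308 and 3219. The ephrin-A genes thus lay between -0.39 and 0.50, and the EphA receptors above background between -1.69 and 0.03.

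Several probes of a gene mostly shared a direction. Of 28 members with more than 1 probe measured on both arrays, 23 had all such probes on the same side of 0. For 6 of the 8 members at least 2-fold different there were several such probes, 15 in all, of which 11 were themselves at least 2-fold different. These 11 include the brightest probe of each of the 6 genes, which had to pass because the call was made on it. The other measured probes passed 2-fold for Slit3, Neo1 and Epha3, and did not for Epha4, Epha5 and Sema6d. Epha1 and Ntn1 rest on 1 probe each.

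**Figure D4:**
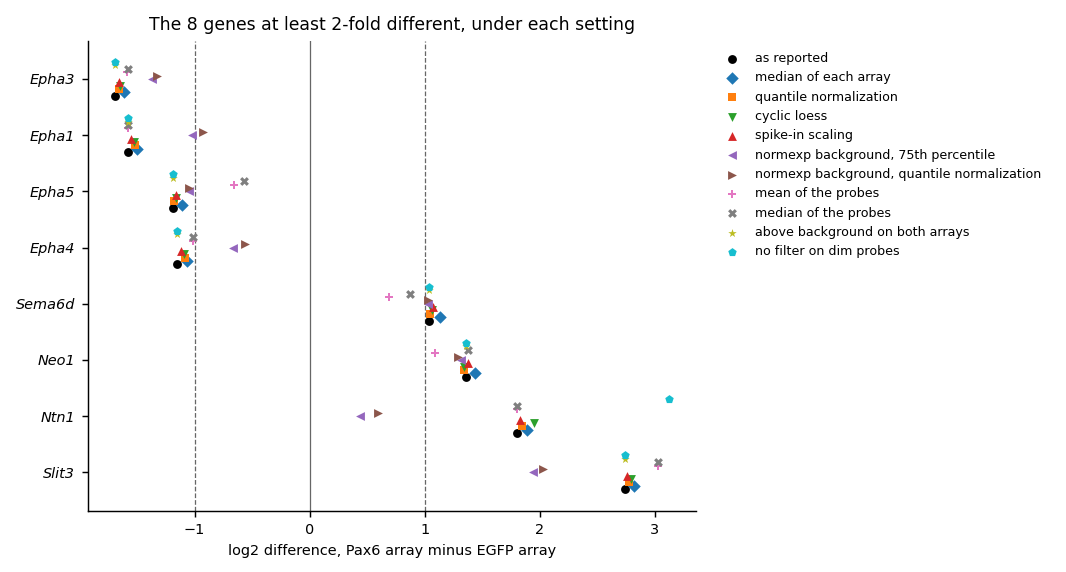
Log2 difference (Pax6 array minus EGFP array) of the 8 members at least 2-fold different, under each scaling, background correction, probe rule and filter; black circles are the values as reported and dashed lines mark 2-fold. Slit3, Neo1 and Epha3 stay beyond the lines in every setting, and the others come within them in at least 1.

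Among the intracellular and accessory genes of the pathway, 1.56% differed by at least 2-fold. Of 68 listed genes, which cover collapsin response mediators, GTPase regulators, kinases, actin regulators and other ligands of these receptors, 64 were above background. Of these, 1 was at least 2-fold higher and 0 lower, with a median of -0.03, and the 2-fold shares over all genes are those given above. Mical1, an oxidase that disassembles actin filaments downstream of plexins, read 2512 and 5863, a log2 difference of 1.01 ± 0.20 or 2.01-fold higher, at the edge of the rule. At 1.5-fold, 4 were higher (6.25%) and 3 lower (4.69%), near or below the 5.91% and 7.76% over all genes. The pathway genes named here besides Mical1 were chosen after their values were seen and are given as values only. The higher ones besides Mical1 were Rgmb, a repulsive guidance molecule that binds neogenin (295 and 530, 0.63 ± 0.20), Lrrc4, a netrin-G2 ligand (0.62 ± 0.20), and Chn1, a Rac GTPase-activating protein downstream of Epha4 (0.61 ± 0.22). Rgma, another neogenin ligand, read 4216 and 6972 (0.51 ± 0.20).

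On the lower side were Srgap1, a GTPase-activating protein that binds Robo1 (24.9 and 15.3, -0.92 ± 0.35), Ngef, the exchange factor ephexin that acts downstream of Epha4 (607 and 410, -0.78 ± 0.20), and Ablim1, an actin-binding protein linked to netrin signalling (-0.72 ± 0.23). Flrt2 and Flrt3, which bind Unc5 receptors, were at -0.20 and 0.40.

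Markers of the labelled cell type and of others are given beside these results. Of 11 neural progenitor markers 10 were above background, with Nes, the progenitor filament nestin, 3.17-fold lower, Slc1a3 12.9-fold lower and Sox2, also a doxycycline-driven factor, 3.34-fold higher. The list's summed signal, relative to the 75th percentile, was 124 and 131, of which Vim made up 117 and 127. Without Vim it was 7.36 and 3.70. Most epithelial markers above background were lower on the Pax6 array, and a link with the EphA receptors was not tested. Of 13, 10 were above background and 9 of these at least 2-fold lower, and their summed signal was 77.1 and 27.2 (27.0 and 8.37 without Krt18, the brightest). Cldn4, Esrp1 and Ocln were not well above background on either. All 10 fibroblast and mesenchymal markers were above background. Of these, 3 were at least 2-fold higher (Col3a1, Dcn and Fap) and 4 lower (Col1a1, Col1a2, Thy1 and Twist2). Fap was dim in the EGFP cells and Thy1 in the Pax6 cells. The summed signal of all 10 was 114 and 66.5, and 7.93 and 19.5 without Col1a2, so its direction turned on that gene.

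Neuronal markers, of which 10 of 12 were above background, had a summed signal of 14.8 and 14.6 and 1 gene at least 2-fold lower, Snap25. Dcx and Nefm, markers of young neurons and of axons, were not well above background. Oligodendrocyte lineage markers were above background for 6 of 10 (10.9 and 7.80), without Olig1, Olig2, Mog and Gpr17, and Mbp was 2.10-fold lower. Astrocyte markers were above background for 6 of 7 (7.56 and 7.89), without Slc1a2. Of these, 0 were at least 2-fold lower and 1 was higher, Aqp4, dim in the EGFP cells and at least 3.86-fold higher. At 1.5-fold, a lower fold than used for the other lists, 3 were higher and 0 lower. S100b was 1.52-fold and Aldh1l1 1.58-fold higher. Pluripotent markers were above background on at least 1 array for all 8 (0.719 and 0.592), with Zfp42 2.81-fold lower. Pou5f1 (Oct3/4) read 7.99 and 14.3 and Esrrb 8.34 and 17.4, both dim in the EGFP cells. Endothelial markers, whose cells use Slit3, Robo4 and several semaphorins, were near background, with 4 of 8 detected, a summed signal of 0.119 and 0.0955, and Pecam1, Cdh5, Tie1 and Emcn undetected. The part of these cell types in the differences of the guidance genes was not tested.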

How the data were processed

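Total RNA of each line was labelled with Cy3 and hybridised to a 1-colour Agilent array. Per the headers of the deposited scanner files, Feature Extraction 10.7.3.1 read the spots. The intensity used is the deposited processed signal, which the software had already background-subtracted, together with its error. The deposited flags mark spots well above background, saturated or outlying, per the file headers. The deposited series value table held the same intensities as the scanner files.

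From these, control spots and outlier spots were left out, log2 signals were taken less each array's 75th percentile, and replicate spots of a probe were averaged. Probes were named through RefSeq by accession (22951 of 41168 matched) or else by the array's name. A gene took its brightest probe and entered if well above background on at least 1 array. On a dim array the higher of its signal and the lowest signal well above background (10.3 and 9.30) gave a bound. It is written as "at least" where that lowest signal was used. For Unc5a and Plxnb3 the dim signal was used, so the bound equals the difference as measured. All 58 members above background could be named, with full values for those at least 1.5-fold different and the extremes of each family, and pathway genes at least 2-fold different. With 1 array per group, counts at fixed folds replace tests. Scaling, background correction (normexp, offset 50), source table, probe rule, filter and fold were varied with Python 3.11.15, pandas 2.3.3, and limma 3.58.1 in R 4.3.3. The code was also run on simulated data with changes well beyond 2-fold in bright genes. That run does not cover dim genes or differences near 2-fold. The members and lists were chosen with earlier results of these data known.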

Additional observations from a re-analysis of the deposited data

How the results depend on the processing

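No paired analysis was possible because each group has 1 array. In the settings run, the 8 members at least 2-fold different kept their sign. The count of members at least 2-fold lower was 4 as reported and 2 with normexp and quantile normalization. The shares over all genes were 2.43% and 0.568% in these settings. Over all 58 members above background, 12 were at least 1.5-fold lower, beside 7.76% of all genes. At least 3-fold lower was 1 member and at least 3-fold higher were 2. No share over all genes is given at 3-fold, so these counts stand without a comparison. The members' median moved from -0.07 to -0.18 with no filter on dim probes. Of pathway genes, 0 were at least 2-fold higher with quantile normalization, cyclic loess or either normexp setting, against 1 as reported and 2 with no filter. The shares over all genes at least 2-fold higher were 2.48% with quantile normalization and 2.64% with cyclic loess. With normexp they were 0.844% (75th percentile) and 0.917% (quantile normalization), against 2.35% as reported and 4.54% with no filter. At 1.5-fold, 4 pathway genes were higher and 3 lower, beside 5.91% and 7.76% of all genes, and at 3-fold 0 were higher. Mical1, at 2.01-fold, is the 1 pathway gene counted as reported. For single genes, counting settings that could not change a value, 594 values stayed within the measurement error and 40 moved beyond it. The sign turned for 14 of these values, in 5 genes reported within 0.14 of 0 (Nrp2, Robo2, Sema3c, Slit1 and Unc5b). Sema3c went from 0.14 to -0.10 with the mean or median of its probes. Genes near background carry larger errors, and the normexp offset shrinks their differences.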
